A study of Mus musculus with 12 samples.

Results

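The genes described here are 34 genes of neutrophils, the short-lived white cells that enter inflamed tissue first. They encode granule proteins, surface receptors, subunits of the superoxide-producing oxidase and a set of intracellular proteins. They were chosen by name with earlier results of these data known, so counts of calls among them are not independent of those results. All 34 symbols matched 1 row each of the deposited table, which lists 52636 genes. RNA was sequenced from back skin of BALB/c mice aged 8 weeks, in 12 libraries of 4 groups with 3 libraries each. The mice's age and the doses come from the study's methods for this model. The control group (CON in the labels) received vehicle. The control+RAPA group (RAPA) received rapamycin, an inhibitor of the kinase complex mTORC1, at 4 mg/kg per day. The LL37 group (LL37) received intradermal injections of 40 µl of the cathelicidin peptide LL37 over 2 days, a mouse model of rosacea. The LL37+RAPA group (L_R) received the peptide and rapamycin. Each library is described as an independent biological sample. The skin is bulk tissue, so fewer cells of a type and less RNA per cell cannot be told apart in any value below.

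Neutrophils form their granules in order while they mature in the bone marrow. The primary granule proteases and myeloperoxidase are transcribed at the promyelocyte stage and their mRNA is largely gone from the cells that leave the marrow, whereas receptors for formyl peptides, lectins and the TREM proteins are transcribed in mature cells and rise further on activation. Mature cells also carry the oxidase, whose membrane subunits meet cytosolic subunits to make superoxide. Within neutrophils, primary granule genes and mature-cell genes therefore report on different stages of the same lineage. In tissue RNA this holds only for RNA from cells of that lineage.

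The libraries held between 15734559 and 23271784 counts, at which a floor of 3 counts corresponds to 0.123 to 0.184 CPM, the library-scaled count. CPM values give a gene's counts relative to the library's total, scaled by edgeR's TMM factors, and differences are log2 fold changes from edgeR's quasi-likelihood test with Benjamini-Hochberg adjustment over the 17993 genes tested. A gene is called higher or lower when its adjusted p is under 0.05 and its log2 fold change exceeds 1 in size. Of the 34 members 31 were tested. Elane (27 counts in all 12 libraries), Ctsg (33 counts) and Ngp (59 counts) were too low. Another 7 members, Retnlg, Trem1, Trem3, Fpr1, Olr1, Cd177 and Mcemp1, passed the filter on low counts only through LL37-injected libraries, so a difference was built into their selection. The other 24 tested members passed it on control and control+RAPA libraries alone.

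The library LL37 replicate 3 stood apart from the other LL37 libraries. On the first principal component of all tested genes, which held 68.3% of the variance, it scored 64.4 against 133 and 129 for LL37 replicates 1 and 2, while the LL37+RAPA libraries lay between 0.527 and 29.8 and the control libraries between -62.6 and -50.2. It was the lowest LL37 library for 26 of the 31 tested members and lay inside the LL37+RAPA range for 13 of the tested members. It lay under the highest LL37+RAPA library for 20 of the tested members. Among these were Mpo, Prtn3 and Hp, for which all LL37 libraries did, and Lrg1, for which LL37 replicate 1 did too. Counts of calls that rest on the LL37 group are given below with and without it.

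After LL37 injection, receptor, oxidase and later granule genes rose together in skin while no primary granule gene was called higher in LL37 against control. Of the 31 tested members 27 were called higher in LL37 than in control skin, against 8.73% of all genes tested, and 1, Mpo, was called lower, against 10.8%. The members' median log2 fold change was 2.25, beside -0.00 over all genes tested. In 26 members every LL37 library lay above every control library, a separation that 23.8% of all tested genes showed. Among the 24 members that passed the filter without LL37-injected libraries 20 were called higher and 1 lower. Prtn3, Asprv1 and Ifitm6 were not called in either direction. Without LL37 replicate 3 the count was 28 higher, against 10.5% of 18396 genes tested in that fit. By role these were 5 of 5 lectin and TREM receptors, 8 of 8 other surface receptors, 4 of 4 oxidase genes, 5 of 5 later granule and secreted members, Ngp among those tested there, and 6 of 8 intracellular and other members.

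**Figure D1:**
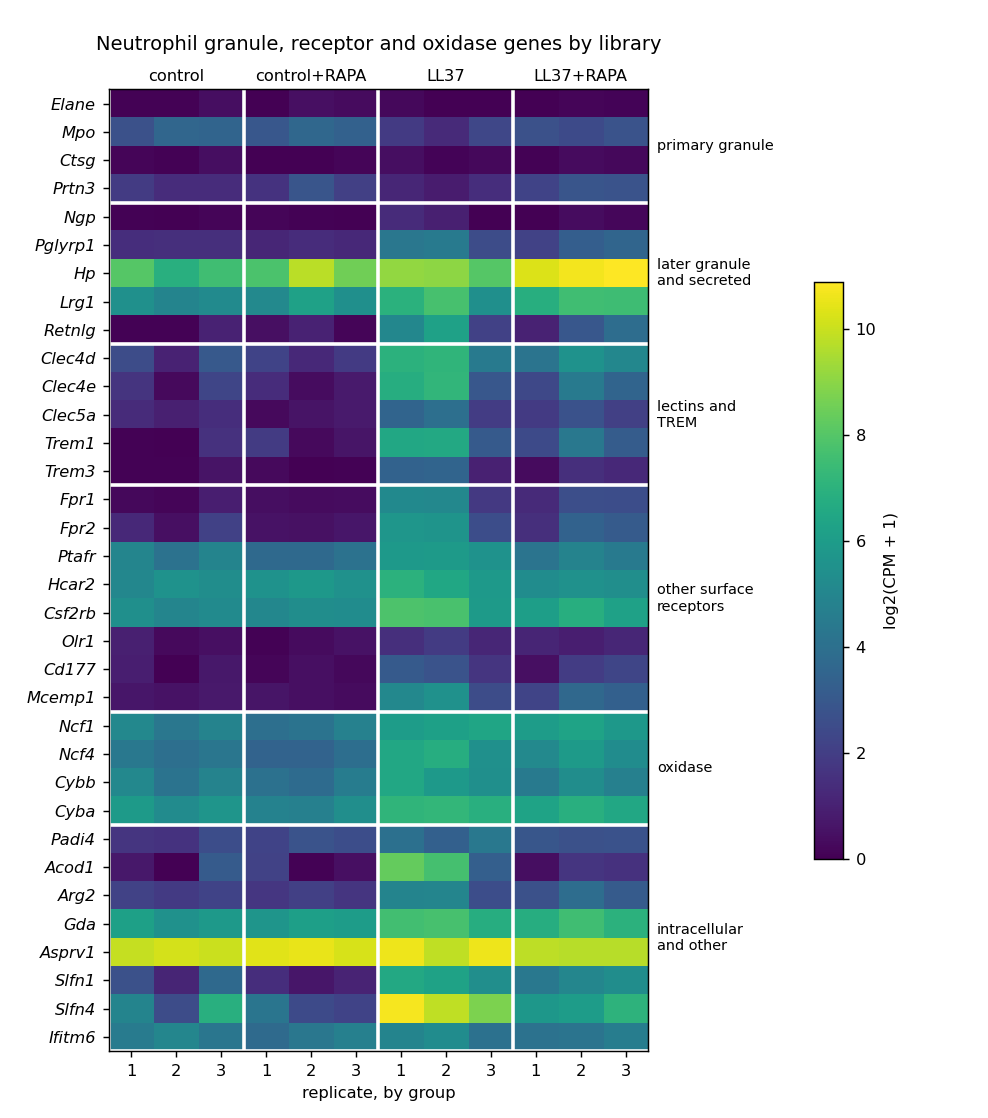
Level of each of the 34 members in each of the 12 libraries, as log2(CPM + 1) on the colour scale, with libraries in columns by group and genes in rows by role. Most receptor and oxidase rows are brightest in LL37 replicates 1 and 2, the Mpo row is darkest in LL37 libraries, and the Hp row is brightest in the LL37+RAPA libraries.

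None of the 4 primary granule genes rose in LL37 against control: Elane and Ctsg were too low to test, Mpo fell and Prtn3 was not called. Elane, which encodes neutrophil elastase, had 0.0539, 0.0513 and 0.316 CPM in the control libraries and 0.163, 0 and 0 CPM in the LL37 libraries. Ctsg, which encodes cathepsin G, had 0.108, 0.0513 and 0.316 CPM in control and 0.327, 0.0613 and 0.188 CPM in LL37 libraries. These values lie around the level of 3 counts in every group, so no difference was detectable at this depth.

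Mpo, which encodes the myeloperoxidase that turns hydrogen peroxide into hypochlorous acid, was the member that fell. It had 5.50, 11.1 and 10.3 CPM in control, 6.78, 11.5 and 9.56 CPM in control+RAPA, 2.61, 1.47 and 3.96 CPM in LL37, and 5.60, 4.46 and 5.86 CPM in LL37+RAPA libraries. All LL37 libraries lay below all libraries of the other groups. The log2 fold change of LL37 against control was -1.72 (SE 0.36, edgeR adjusted p = 0.00241). Against LL37+RAPA it was -0.97 (SE 0.36, edgeR adjusted p = 0.0678), and without LL37 replicate 3 Mpo was called lower there too. Mpo shares 512 exon bases with the gene Gm11505 on the other strand, which had 0 counts in all libraries. In the control libraries Ly6g, the surface marker of mouse neutrophils, had 0, 0 and 0.0527 CPM. Which cells of the skin held the Mpo RNA was not tested.

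Prtn3, which encodes proteinase 3, was not called in LL37 against control. Its values were 2.70, 1.59 and 1.58 CPM in control, 2.01, 6.42 and 3.22 CPM in control+RAPA, 1.25, 0.797 and 1.70 CPM in LL37, and 3.56, 6.39 and 5.86 CPM in LL37+RAPA. The LL37 and control libraries overlapped, and every LL37+RAPA library lay above every LL37 library. LL37 against control gave a log2 fold change of -0.63 (SE 0.46, edgeR adjusted p = 0.300) and LL37 against LL37+RAPA -2.06 (SE 0.44, edgeR adjusted p = 0.00809). Exons of Prtn3 share 159 bases with Plppr3 on the other strand, which had 11.6 to 18.6 CPM in LL37 and 15.6 to 24.5 CPM in LL37+RAPA libraries. No source used here states a strand setting for the counting, so reads in the shared bases cannot be assigned, and the part of Plppr3 in the Prtn3 values was not tested.

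The promoters of these genes are shown because some letters were found at unlike frequency in primary and mature members, although only 4 genes are primary. RefSeq promoter windows, from 250 bases before to 50 bases after the annotated start on GRCm38.p6, were found for 28 of the 34 members, among them the 4 primary granule and 11 of the 13 mature neutrophil genes. Capitals mark matches on either strand to GAGGAAG (of the type bound by PU.1, a myeloid ETS factor), TTGCNNAA (C/EBP type), TGANTCA (AP-1 type), TTCNNNGAA (STAT type) and TATAAA (the core promoter box bound by TBP), in the 250 bases before the start of each gene, read 5′ to 3′ on its own strand. The windows of the 4 primary granule genes are given first, then those of 3 mature neutrophil genes that rose.
Elane (chr10:79886062-79886311, plus strand): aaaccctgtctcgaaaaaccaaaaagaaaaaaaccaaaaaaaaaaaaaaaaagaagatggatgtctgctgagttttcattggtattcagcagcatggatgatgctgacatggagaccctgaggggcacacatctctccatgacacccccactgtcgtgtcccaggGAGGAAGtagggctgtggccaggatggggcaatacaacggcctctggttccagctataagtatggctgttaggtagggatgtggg
Prtn3 (chr10:79879417-79879666, plus strand): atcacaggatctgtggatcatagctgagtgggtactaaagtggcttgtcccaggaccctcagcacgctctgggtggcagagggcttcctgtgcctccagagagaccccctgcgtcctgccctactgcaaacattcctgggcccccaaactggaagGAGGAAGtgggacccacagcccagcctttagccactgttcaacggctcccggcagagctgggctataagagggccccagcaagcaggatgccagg
Mpo (chr11:87793534-87793783, plus strand): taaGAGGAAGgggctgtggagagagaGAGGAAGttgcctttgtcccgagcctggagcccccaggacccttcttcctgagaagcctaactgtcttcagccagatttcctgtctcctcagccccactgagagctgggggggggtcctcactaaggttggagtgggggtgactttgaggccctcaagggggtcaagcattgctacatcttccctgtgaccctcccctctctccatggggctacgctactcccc
Ctsg (chr14:56102575-56102824, minus strand): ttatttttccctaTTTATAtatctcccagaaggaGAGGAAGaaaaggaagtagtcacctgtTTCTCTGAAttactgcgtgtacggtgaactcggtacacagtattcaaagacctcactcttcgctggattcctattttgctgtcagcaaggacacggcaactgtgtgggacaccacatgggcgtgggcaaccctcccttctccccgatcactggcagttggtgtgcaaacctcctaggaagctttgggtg
Clec4e (chr6:123289872-123290121, minus strand): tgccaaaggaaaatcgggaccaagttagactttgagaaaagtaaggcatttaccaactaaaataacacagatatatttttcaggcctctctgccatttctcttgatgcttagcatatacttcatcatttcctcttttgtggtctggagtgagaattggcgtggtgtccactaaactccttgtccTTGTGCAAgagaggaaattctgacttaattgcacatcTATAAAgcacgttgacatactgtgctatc
Padi4 (chr4:140774204-140774453, minus strand): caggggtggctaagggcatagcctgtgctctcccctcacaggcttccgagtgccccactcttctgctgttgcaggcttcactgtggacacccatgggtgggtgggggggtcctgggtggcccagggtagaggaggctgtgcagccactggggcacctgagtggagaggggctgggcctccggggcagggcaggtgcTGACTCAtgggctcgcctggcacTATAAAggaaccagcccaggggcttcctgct
Slfn4 (chr11:83174936-83175185, plus strand): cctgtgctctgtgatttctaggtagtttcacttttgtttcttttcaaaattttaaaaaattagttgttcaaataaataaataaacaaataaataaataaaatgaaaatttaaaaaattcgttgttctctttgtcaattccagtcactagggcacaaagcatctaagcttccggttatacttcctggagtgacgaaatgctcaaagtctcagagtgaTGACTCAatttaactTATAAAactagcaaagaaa

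GAGGAAG was found in 4 of 4 primary granule windows and in 1 of 11 mature neutrophil windows, that of Clec4d. It was found in 7 of all 28 member windows and in 13.6% of the 32851 windows of the RefSeq table. The windows with a match outside the primary genes were those of Clec5a, Clec4d and Pglyrp1, all called higher in LL37 than in control. The printed mature windows hold no match to it. In Elane and Prtn3, which are neighbours on chromosome 10 with 3072 bases between them, GAGGAAG began 85 and 95 bases before the start. TATAAA was found in 7 of 11 mature windows and 1 of 4 primary windows, against 13.6% of all windows. In Clec4e, Padi4 and Acod1 it began 29, 31 and 28 bases before the start. The primary match, on the other strand in Ctsg, and the mature matches in Fpr1 and Fpr2 lay farther from the start than the other mature matches. The printed Elane and Prtn3 windows hold tataag, which differs in its last letter, near the place of the match in Padi4. The search for exact letters therefore cannot tell whether primary windows lack such a box. TGANTCA was found in 5 of 28 member windows (7.81% of all windows), 0 of them primary, and began 54 bases before the start in Padi4 and 34 bases before it in Slfn4. TTGCNNAA was found in 4 member windows (10.8% of all windows) and TTCNNNGAA in 5 (8.3% of all windows). A match describes letters in a window and does not show that a factor binds there.

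Several members lie near each other in the genome, again by coordinates of GRCm38. Other genes between them were not looked for. Clec4d and Clec4e are 6523 bases apart on chromosome 6, Trem1 and Trem3 are 852 bases apart and Fpr1 and Fpr2 are 3883 bases apart on chromosome 17, Slfn1 and Slfn4 are 52515 bases apart on chromosome 11, and Ncf4 and Csf2rb are 63171 bases apart on chromosome 15. Within these pairs both genes were called higher in LL37 than in control. The neighbours Prtn3 and Elane were not called and not tested, respectively.

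The mature neutrophil genes were set beside the primary granule genes. The 13 genes listed as mature neutrophil genes were Retnlg, Padi4, Clec4d, Clec4e, Trem1, Trem3, Fpr1, Fpr2, Cd177, Mcemp1, Hcar2, Slfn4 and Ifitm6. Of these 12 were called higher in LL37 than in control, with a median log2 fold change of 4.45, whereas of the 4 primary granule genes 2 were tested, 0 were called higher and 1 lower. The same filter on low counts bears on both sides of this, since 6 of the 13 mature genes passed it only through LL37-injected libraries and 2 of the 4 primary genes did not pass. Of the 7 mature genes that passed it without those libraries 6 were called higher and 0 lower, with a median log2 fold change of 4.34. Without LL37 replicate 3 the counts against control were 12 of 13 mature genes higher and, of the primary granule genes, 0 higher and 1 lower. Summed over the 13 genes, the level was 95.8, 86.2 and 199 CPM in control libraries, 2361, 1648 and 579 CPM in LL37 libraries and 148, 256 and 290 CPM in LL37+RAPA libraries. The primary granule genes summed to 8.36, 12.8 and 12.5 CPM in control, 4.35, 2.33 and 5.84 CPM in LL37, and 9.20, 11.2 and 11.99 CPM in LL37+RAPA. The ratio of the sums was 542, 708 and 99.2 in LL37 libraries, 6.75 to 15.9 in control, 4.86 to 10.3 in control+RAPA and 16.04 to 24.2 in LL37+RAPA libraries.

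The sum of the mature genes was carried largely by Slfn4, which made up 71.7%, 55.6% and 74.4% of the sum in the LL37 libraries. Without it, a step chosen after the values were seen, the ratio was 153, 315 and 25.4 in LL37 libraries. It was 6.38 to 7.97 in control and 10.3 to 17.1 in LL37+RAPA libraries. Every LL37 library still lay above every other library in this ratio. In the control libraries the mature sum without Slfn4 was 66.6, 81.4 and 83.1 CPM. Most of it was Hcar2, at 32.0, 45.9 and 39.4 CPM, and Ifitm6, at 22.3, 31.1 and 18.6 CPM. The cells that held this RNA were not tested. The primary sum was largely that of Mpo and Prtn3, with 3.96 and 1.70 of 5.84 CPM in LL37 replicate 3. The mature sum of that library without Slfn4, 148 CPM, lay within the LL37+RAPA range. Its separation from all LL37+RAPA libraries therefore rested on its lower primary sum. The part of Plppr3 in the Prtn3 values was not tested.

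**Figure D2:**
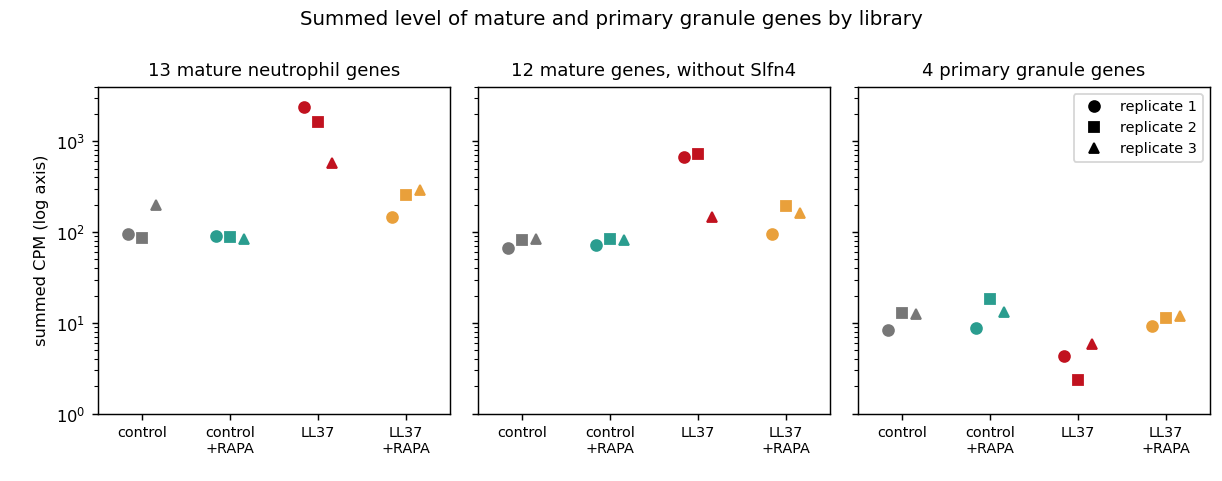
Summed CPM on a log axis in each of the 12 libraries for the 13 mature neutrophil genes, for the 12 left without Slfn4, and for the 4 primary granule genes, with 1 marker shape per replicate number. The mature sums rise to 579 to 2361 CPM in LL37 libraries while the primary sums are lowest there, at 2.33 to 5.84 CPM, and LL37 replicate 3 without Slfn4 lies within the LL37+RAPA range.

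The later granule and secreted members rose, with unlike responses to rapamycin. Of 5 members 4 were tested and all 4 were called higher in LL37 than in control. Pglyrp1, a peptidoglycan-binding protein of later granules, had 1.67, 1.79 and 1.74 CPM in control, 19.1, 21.5 and 4.80 CPM in LL37 and 3.46, 8.68 and 10.8 CPM in LL37+RAPA. LL37 libraries were all above control (log2 fold change 3.12, SE 0.54, edgeR adjusted p = 0.000825), and LL37 replicate 3 lay within the LL37+RAPA range. Retnlg, a resistin-like secreted protein of neutrophils, rose from 0.0539, 0.0513 and 1.05 CPM to 31.5, 73.8 and 3.34 CPM (log2 fold change 6.52, SE 1.36, edgeR adjusted p = 0.00261) and had 1.04, 6.71 and 13.8 CPM in LL37+RAPA. Its LL37 and control libraries did not overlap, but LL37 and LL37+RAPA libraries did. Ngp, a later granule protein of the cathelicidin-like family, had 1.52, 0.919 and 0 CPM in LL37. Control libraries were at 0.0539, 0 and 0.105 CPM, all at or below 3 counts, which puts the LL37 mean at least 5.16-fold higher than a floor of 3 counts per library. LL37 replicate 3 held no Ngp count.

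Lrg1 and Hp, acute-phase glycoproteins made by several cell types besides neutrophils, were higher in LL37 than in control but not lower with rapamycin. Lrg1 had 123, 211 and 42.2 CPM in LL37, 43.8, 29.3 and 35.8 CPM in control and 113, 186 and 182 CPM in LL37+RAPA. Hp, which encodes haptoglobin, had 257, 115 and 186 CPM in control, 559, 525 and 261 CPM in LL37, and 1293, 1671 and 1898 CPM in LL37+RAPA. All LL37+RAPA libraries exceeded all LL37 libraries, and control+RAPA libraries ranged from 221 to 864 CPM. Hp was called lower in LL37 than in LL37+RAPA (log2 fold change -1.85, SE 0.47, edgeR adjusted p = 0.0163) and higher in LL37+RAPA than in control (3.13, SE 0.49, edgeR adjusted p = 0.00139). Its call against control in LL37 (1.27, SE 0.46, edgeR adjusted p = 0.0436) was lost in 9 of 20 alternative fits. Hp is also made by fat cells. A list of 5 adipocyte genes (Adipoq, Plin1, Cidec, Fabp4 and Cfd), added after the Hp values were seen, summed to 1080 to 2087 CPM in control, 1335 to 3348 CPM in control+RAPA, 340 to 742 CPM in LL37 and 2208 to 2411 CPM in LL37+RAPA, and all 5 were called lower in LL37 than in either control or LL37+RAPA. Their part in the Hp values was not tested.

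The lectin and TREM receptors, which sense fungal and dead-cell ligands and amplify myeloid activation, were all called higher in LL37 than in control, 5 of 5. Clec4e, the receptor Mincle, had 2.16, 0.205 and 3.85 CPM in control and 111, 144 and 6.74 CPM in LL37 (log2 fold change 5.40, SE 1.11, edgeR adjusted p = 0.00235). Clec4d, its partner, had 4.74, 1.08 and 7.32 CPM in control and 125, 141 and 21.4 CPM in LL37 (4.45, SE 0.76, edgeR adjusted p = 0.000807). All LL37 libraries lay above all control libraries for both genes, replicate 3 by the smallest margin. Trem1, a receptor that amplifies signals from pattern receptors, gave the highest log2 fold change among the members at 6.62 (SE 1.29, edgeR adjusted p = 0.00172), from 0.0539, 0 and 1.90 CPM to 91.8, 93.9 and 7.49 CPM. Trem3 rose from 0.0539, 0.0513 and 0.474 CPM to 9.74, 10.5 and 0.989 CPM, and Clec5a, a receptor that signals through DAP12, from 1.56, 0.923 and 1.69 CPM to 10.4, 14.6 and 2.83 CPM. Both were called, with log2 fold changes of 5.15 (SE 1.07) and 2.73 (SE 0.56). With rapamycin, Clec4e was at 4.18, 20.7 and 10.4 CPM and Clec4d at 17.3, 45.7 and 31.9 CPM. LL37 replicate 3 lay inside that range for both, and LL37 replicates 1 and 2 lay above that range. Clec4e and Trem3 were called higher in LL37 than in LL37+RAPA. The call was lost in 12 of 19 alternative fits for Clec4e (edgeR or DESeq2 adjusted p up to 0.143) and in 13 of 19 for Trem3 (up to 0.138). Without LL37 replicate 3 all 5 were called.

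Of the 8 other surface receptors, all 8 were called higher in LL37 than in control, and every LL37 library exceeded every control library for each of them. Fpr1 and Fpr2, receptors for bacterial formyl peptides and, in the case of Fpr2, for cathelicidin peptides, had 0.162, 0.103 and 0.896 CPM and 1.40, 0.359 and 3.32 CPM in control. In LL37 libraries Fpr1 had 34.7, 32.6 and 2.50 CPM and Fpr2 51.1, 49.3 and 4.90 CPM. Their log2 fold changes were 5.89 (SE 1.01, edgeR adjusted p = 0.000805) and 4.37 (SE 0.92, edgeR adjusted p = 0.00274). Fpr2 shares 48 exon bases with Fpr3 on the same strand, which had at most 0.435 CPM in any library. Mcemp1, a membrane protein of mast cells, monocytes and neutrophils, rose from 0.593, 0.461 and 0.685 CPM to 33.4, 44.4 and 4.80 CPM (5.55, SE 0.80, edgeR adjusted p = 0.000260) and was above control in LL37+RAPA at 3.75, 11.8 and 9.11 CPM (3.82, SE 0.78, edgeR adjusted p = 0.00710). Of 6 mast cell marker genes 0 were called in LL37 against control, with a median log2 fold change of 0.02. In LL37+RAPA against control 1 was called higher, with a median of 0.56. Of 4 monocyte markers 2 were called higher in LL37 and 3 in LL37+RAPA, each against control. The part of mast cells and monocytes in the Mcemp1 values was not tested. Cd177, an adhesion partner of proteinase 3 on neutrophils, went from 0.863, 0 and 0.632 CPM to 7.51, 5.94 and 2.17 CPM, and Olr1, a scavenger receptor, from 0.917, 0.205 and 0.369 CPM to 1.80, 2.70 and 1.27 CPM.

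Csf2rb, Ptafr and Hcar2 were already well detected in control skin. Csf2rb, the shared beta chain of the GM-CSF, interleukin-3 and interleukin-5 receptors, went from 41.4, 29.8 and 36.5 CPM in control to 226, 219 and 59.8 CPM in LL37 (2.23, SE 0.40, edgeR adjusted p = 0.00109) and 67.3, 113 and 73.2 CPM in LL37+RAPA. LL37 replicate 3 lay below all LL37+RAPA libraries. Csf2rb has a close paralog, Csf2rb2, with which the counting could split reads. Ptafr, the receptor for platelet-activating factor, had 29.8, 16.1 and 28.9 CPM in control, 56.2, 59.3 and 46.3 CPM in LL37 and 17.4, 28.6 and 21.7 CPM in LL37+RAPA. All LL37 libraries exceeded all others, and LL37+RAPA libraries lay within the control range. Its log2 fold change was 1.11 (SE 0.24, edgeR adjusted p = 0.00307) against control and 1.25 (SE 0.24, edgeR adjusted p = 0.00479) against LL37+RAPA. Hcar2, the hydroxycarboxylic acid receptor found on neutrophils, macrophages and skin immune cells, had 32.0, 45.9 and 39.4 CPM in control and 46.1, 55.3 and 45.0 CPM in control+RAPA. It had 128, 89.4 and 58.1 CPM in LL37 and 37.8, 44.9 and 40.2 CPM in LL37+RAPA. The LL37 libraries lay above all others, and the LL37+RAPA libraries lay within the control range. Its log2 fold change was 1.23 (SE 0.24, edgeR adjusted p = 0.00153) against control and 1.16 (SE 0.23, edgeR adjusted p = 0.00617) against LL37+RAPA.

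The oxidase genes were all called higher in LL37 skin, 4 of 4, with log2 fold changes between 1.30 and 2.21. Cybb and Cyba encode the membrane subunits of the phagocyte NADPH oxidase, and Ncf1 and Ncf4 encode cytosolic subunits that assemble with them. Cybb had 33.1, 17.0 and 28.0 CPM in control, 91.1, 58.8 and 42.0 CPM in LL37 and 20.6, 39.7 and 26.1 CPM in LL37+RAPA. LL37 libraries did not overlap with those of either other group (1.30, SE 0.34, edgeR adjusted p = 0.00995 against control, and 1.15, SE 0.34, edgeR adjusted p = 0.0312 against LL37+RAPA). Cyba had 60.5, 37.2 and 49.9 CPM in control, 139, 147 and 117 CPM in LL37 and 79.6, 116 and 91.1 CPM in LL37+RAPA. It was above control in both LL37-injected groups, with 1.45 (SE 0.21, edgeR adjusted p = 0.000301) in LL37.

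The cytosolic subunits were called higher than control in LL37+RAPA skin too. Ncf1 had 32.6, 18.8 and 28.1 CPM in control, 64.8, 71.6 and 82.4 CPM in LL37 and 63.5, 78.0 and 54.6 CPM in LL37+RAPA. LL37 replicate 3 was its highest LL37 library, and LL37 and LL37+RAPA libraries overlapped (0.16, SE 0.23, edgeR adjusted p = 0.652). Ncf1 shares 408 exon bases with Gtf2ird2 on the other strand, which stayed between 13.4 and 19.5 CPM in all libraries. Ncf4 had 19.8, 15.0 and 18.4 CPM in control, 91.7, 110 and 43.6 CPM in LL37 and 33.8, 59.6 and 38.7 CPM in LL37+RAPA. The log2 fold change of LL37+RAPA against control was 1.30 (SE 0.24, edgeR adjusted p = 0.00343) for Ncf1 and 1.31 (SE 0.31, edgeR adjusted p = 0.0163) for Ncf4. Cybb was not called there (0.15, SE 0.34, edgeR adjusted p = 0.835). Cyba was not called in the main fit either, although 3 of the 4 oxidase genes, Cyba among them, had an adjusted p under 0.05. It was called in 4 of 20 alternatives, over which its log2 value ran from 0.78 to 1.13. Whether the responses of the membrane subunits differ from those of Ncf1 and Ncf4 was not tested. Macrophages use the same oxidase, and 8 macrophage marker genes summed to 497 to 892 CPM in control, 1580 to 1712 CPM in LL37 and 913 to 1324 CPM in LL37+RAPA, with 4 of 8 called higher in LL37 than in control and 1 of 8 higher than in LL37+RAPA. Their part in the oxidase values was not tested.

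**Figure D3:**
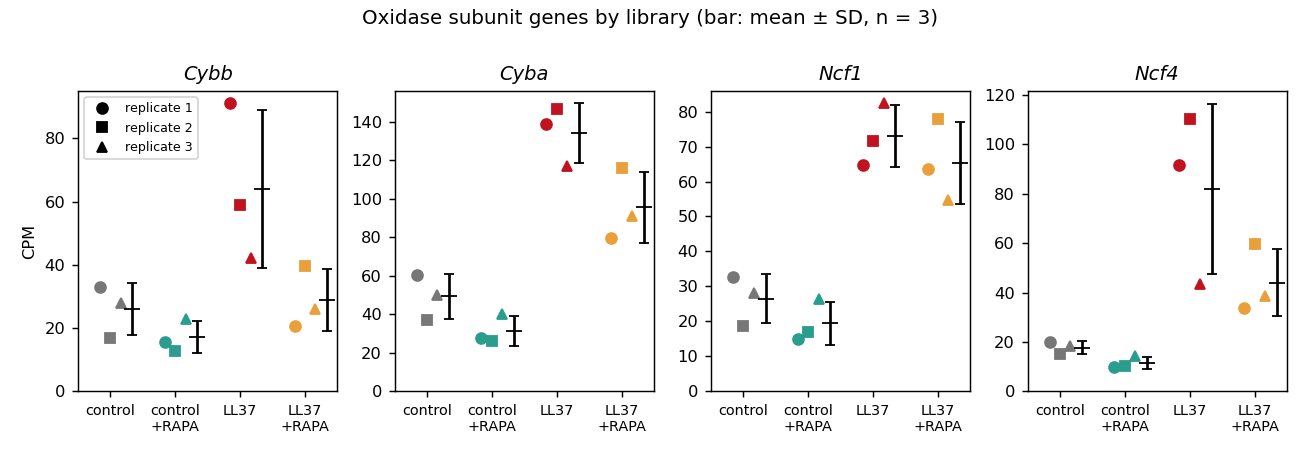
CPM of the 4 oxidase genes in each library, with linear axes from 0 and the mean ± SD (n = 3) of each group in black. LL37 libraries of Cybb lie at 42.0 to 91.1 CPM above all LL37+RAPA libraries, whereas for Ncf1 the LL37 libraries at 64.8 to 82.4 CPM overlap with LL37+RAPA at 54.6 to 78.0 CPM.

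Of the 8 intracellular and other members 6 were called higher in LL37 than in control. Acod1, the enzyme that makes itaconate in activated myeloid cells, had 0.647, 0 and 7.80 CPM in control, 317, 204 and 8.81 CPM in LL37 and 0.332, 2.21 and 1.89 CPM in LL37+RAPA. All LL37 libraries lay above all others, although LL37 replicate 3 exceeded control replicate 3 by little. The log2 fold changes were 5.97 (SE 1.43, edgeR adjusted p = 0.00584) against control and 6.87 (SE 1.51, edgeR adjusted p = 0.00875) against LL37+RAPA. Slfn4, a Schlafen gene of myeloid cells, had 29.2, 4.77 and 116 CPM in control, 1693, 915 and 431 CPM in LL37 and 52.7, 64.6 and 130 CPM in LL37+RAPA. It did not overlap between LL37 and any other group (4.34, SE 1.02, edgeR adjusted p = 0.00513 against control, and 3.62, SE 0.98, edgeR adjusted p = 0.0217 against LL37+RAPA). The nearby Slfn1 had 94.9, 75.6 and 40.5 CPM in LL37, 5.50, 1.18 and 12.3 CPM in control and 19.6, 31.2 and 39.7 CPM in LL37+RAPA, where it stayed above control (2.26, SE 0.60, edgeR adjusted p = 0.0262).

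Padi4, the arginine deiminase that citrullinates histones when neutrophils release chromatin, had 2.21, 2.05 and 4.95 CPM in control, 15.0, 9.07 and 19.8 CPM in LL37 and 6.59, 5.57 and 5.73 CPM in LL37+RAPA. LL37 replicate 3 was the highest of the libraries for Padi4, unlike for most members. LL37 exceeded control by 2.25 (SE 0.36, edgeR adjusted p = 0.000545) and LL37+RAPA by 1.30 (SE 0.34, edgeR adjusted p = 0.0198). Arg2, the mitochondrial arginase, went from 3.40, 2.56 and 3.53 CPM in control to 29.0, 29.6 and 5.04 CPM in LL37, and Gda, a guanine deaminase, from 71.1, 44.2 and 58.2 CPM to 190, 210 and 110 CPM. Arg2 shares 285 exon bases with Vti1b on the other strand, which had 82.1 to 105 CPM in all libraries, and 116 with Gm48780, which had 3.54, 4.04 and 0.565 CPM in LL37 libraries and 0.115 to 1.09 CPM in the other groups. Reads in the shared bases cannot be assigned.

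Asprv1 and Ifitm6 were not called in any of the comparisons between groups. Asprv1, a retroviral-like protease of the granular layer of the epidermis that neutrophils also express, had the highest level of all members per kilobase in control and LL37 skin, with 691 and 864 CPM per kb as group means. Its 977, 1179 and 1051 CPM in control overlapped with 1548, 919 and 1544 CPM in LL37. LL37+RAPA libraries, at 891, 834 and 850 CPM, lay below all LL37 libraries, but the log2 fold change of LL37 against LL37+RAPA was under the limit of 1 (0.64, SE 0.18, edgeR adjusted p = 0.0250). The summed level of 4 granular keratinocyte markers was 6497 to 8039 CPM in control and 4529 to 6839 CPM in LL37, and its part in the Asprv1 values was not tested. The interferon-induced Ifitm6 had 22.3, 31.1 and 18.6 CPM in control and 29.1, 38.4 and 15.9 CPM in LL37.

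Ranked by group mean CPM per kb, which sets genes of different length on 1 scale, Asprv1, Hp, Slfn4, Cyba and Lrg1 were highest in LL37 skin at 864, 279, 256, 129 and 89.1, followed by Acod1, Retnlg and Clec4d at 67.3, 61.1 and 59.9. The 4 primary granule genes were among the 6 lowest, with Mpo at 0.783, Prtn3 at 0.721, Ctsg at 0.186 and Elane at 0.0553 CPM per kb. In control skin Mpo, at 2.62 CPM per kb, ranked 16 of 34, above Fpr2 at 1.31 and Acod1 at 1.07. In LL37 skin it ranked 29, below Fpr2 at 27.1.

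**Figure D4:**
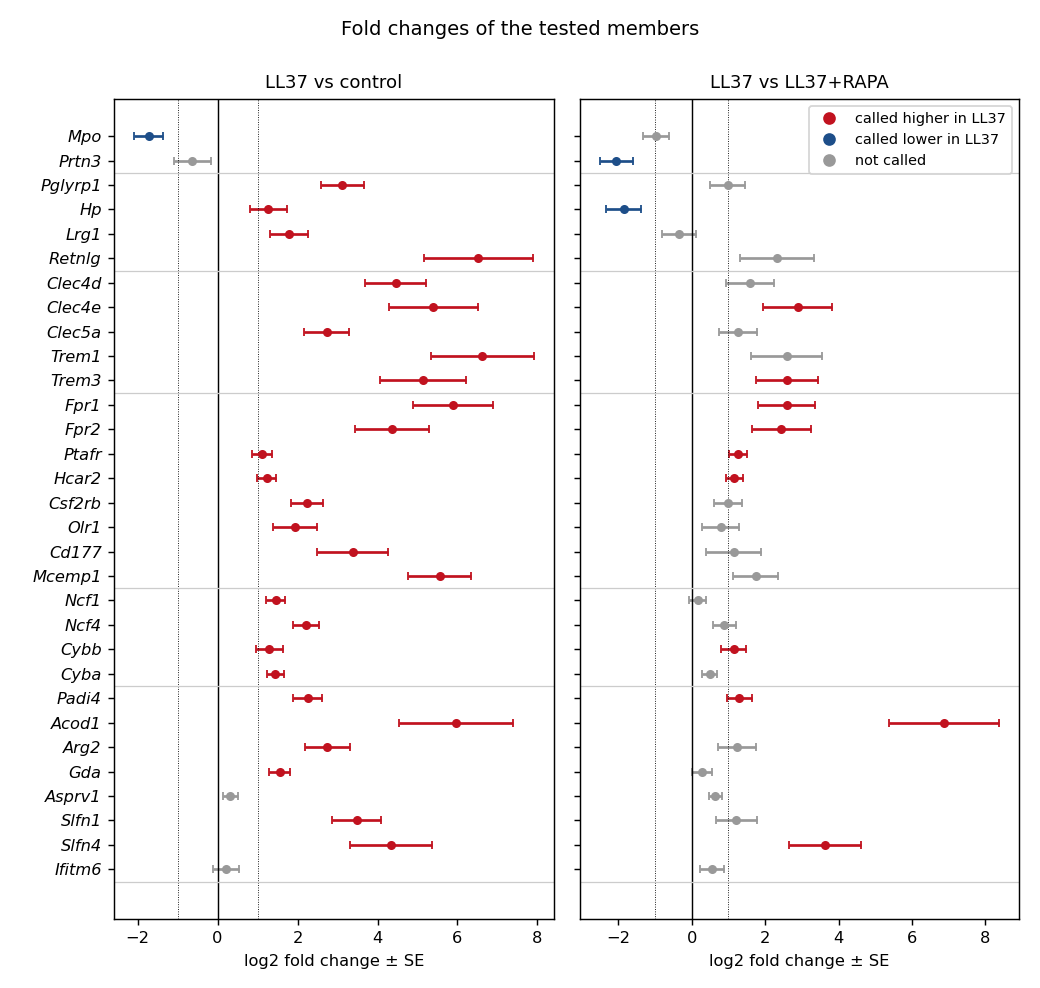
Log2 fold change ± SE of the 31 tested members in LL37 against control and in LL37 against LL37+RAPA, by role, with dotted lines at 1 and -1. In the comparison with control 27 points are called higher and Mpo lower, and in the comparison with LL37+RAPA 10 are called higher and Prtn3 and Hp lower. Both comparisons use the same LL37 libraries.

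The comparison of LL37 with LL37+RAPA asks whether mTORC1 inhibition changes the response, and it shares its LL37 libraries with the comparison above. Of 31 tested members 10 were called higher in LL37, against 4.33% of all tested genes, and 2, Prtn3 and Hp, were called lower, against 5.8%. The 10 were Clec4e, Trem3, Fpr1, Fpr2, Ptafr, Hcar2, Cybb, Padi4, Acod1 and Slfn4, of which 7 belong to the 13 mature neutrophil genes and 1, Cybb, to the oxidase. The members' median log2 fold change was 1.16, beside -0.00 over all tested genes. In 10 members, not all of them called, every LL37 library exceeded every LL37+RAPA library, against 17.6% of all tested genes. Without LL37 replicate 3 there were 21 members called higher and 3 lower, against 5.94% of genes called higher in that fit. The 21 included 11 of the 13 mature neutrophil genes, 5 of the 5 lectin and TREM receptors and 2 of the 4 oxidase genes, Cybb and Ncf4, and the 3 were Prtn3, Hp and Mpo. Leaving out LL37 replicate 1 gave 2, LL37 replicate 2 gave 5, and LL37+RAPA replicates 1, 2 and 3 gave 3, 5 and 4. Ptafr and Acod1 were the members called higher in every alternative fit in which they were tested. Of the other 8, Fpr2 lost its call in 12 of 19 fits, Fpr1 in 7 of 19, Cybb in 6 of 20, Padi4 in 4 of 20, Slfn4 in 3 and Hcar2 in 1, beside Clec4e and Trem3 with the losses given above. Prtn3 stayed lower in all 20, and Hp lost its call in 1.

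LL37+RAPA skin still differed from control skin. Of the 31 tested members 10 were called higher, against 2.15% of all tested genes, and 0 lower, against 4.35%. The 10 were Prtn3, Pglyrp1, Hp, Lrg1, Clec4d, Mcemp1, Ncf1, Ncf4, Gda and Slfn1. Of these Hp, Lrg1, Mcemp1, Ncf1 and Gda kept the call in every alternative fit, whereas Prtn3 lost it in 7 of 20, Pglyrp1 and Clec4d in 5 each and Ncf4 and Slfn1 in 3 each. Without LL37 replicate 3, a library of neither group whose spread enters the shared fit, the count was 18. It was 6 without control replicate 2, 5 without LL37+RAPA replicate 2 and 6 without LL37+RAPA replicate 3. LL37+RAPA replicate 1 was the lowest LL37+RAPA library for 26 of 31 tested members.

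The share of the LL37 response left in LL37+RAPA skin varied among the members. It was computed as the difference of mean CPM between LL37+RAPA and control in percent of that between LL37 and control. It covers the 27 members called higher in LL37, as a description without a test. The control+RAPA group did not enter it, so a shift by rapamycin in control skin counts toward the share. Mean CPM in control and control+RAPA was 25.0 and 13.5 for Ptafr, 2.81 and 1.27 for Acod1 and 50.1 and 8.64 for Slfn4. For Hcar2 it was 39.1 and 48.8, and for Cybb 26.0 and 17.1. A share taken against control+RAPA was not computed. The share against control was -8.25% for Ptafr, -0.77% for Acod1, 3.35% for Slfn4, 3.55% for Hcar2 and 7.34% for Cybb. Formyl peptide receptors, TREM genes and Clec4e held 11.4% to 15.7%, Mcemp1 and Clec4d 28.3% and 29.8%, and Ncf4 and Pglyrp1 41.1% and 44.2%. At the other end were Cyba with 54.5%, Gda with 73.3%, Ncf1 with 83.7%, Lrg1 with 139% and Hp with 546%. Without LL37 replicate 3 Lrg1 stood at 94.8%, on the other side of the full response, and Hp at 402%. Clec4e then held 7.72%, Fpr1 10.4% and Trem1 10.9%, Mcemp1 19.9%, Clec4d 21.2%, Ncf4 31.6%, Pglyrp1 31.9%, Gda 57.8% and Ncf1 93.3%. The lowest shares changed sign with single libraries. Hcar2 ran from -3.39% without control replicate 1 to 9.41% without control replicate 2, and Cybb from -6.97% without LL37+RAPA replicate 2 to 18.1% without LL37+RAPA replicate 1. Ptafr ran from -27.7% without control replicate 2 to 0.65% without LL37+RAPA replicate 1, and Acod1 from -1.59% without control replicate 2 to 0.66% without control replicate 3.

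**Figure D5:**
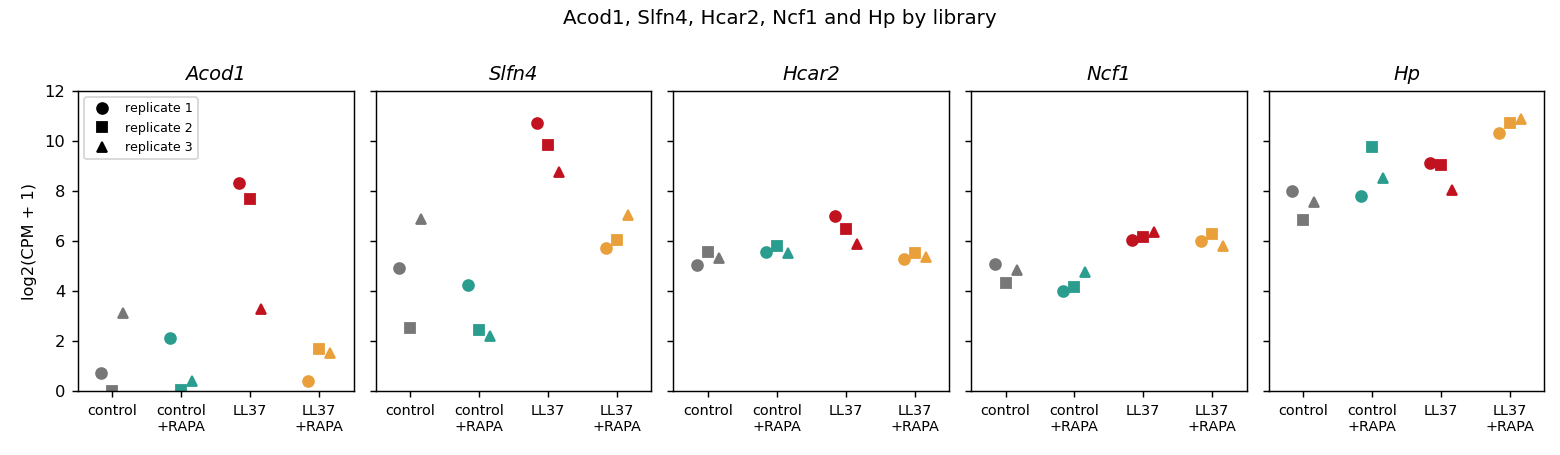
Levels of Acod1, Slfn4, Hcar2, Ncf1 and Hp as log2(CPM + 1) in each of the 12 libraries, with 1 marker shape per replicate number. LL37+RAPA libraries of Acod1, Slfn4 and Hcar2 lie below all LL37 libraries, those of Ncf1 overlap with LL37, and those of Hp lie above all LL37 libraries.

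Rapamycin without LL37 gave no call among the members. Comparing control+RAPA with control, edgeR called 0 of 31 members and 0% of the 17993 genes tested, and 7 members and 1556 genes had an unadjusted p under 0.05. DESeq2 called 0 members and 52 genes. The members' median log2 fold change was -0.45, beside -0.01 over all tested genes. Acod1 had 3.42, 0.0494 and 0.345 CPM and Slfn4 17.9, 4.44 and 3.57 CPM in control+RAPA libraries, ranges that overlap with control.

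The interaction asks whether rapamycin acted differently in LL37-injected and control skin. It was called for 1 of 31 members, Hcar2, or 3.23%, a share near the 2.38% of all tested genes called in either direction, so the count says nothing particular about the members. For Hcar2 the effect of rapamycin in LL37-injected skin was lower than in control skin by -1.48 on the log2 scale (SE 0.33, edgeR adjusted p = 0.0379). The call was lost in 11 of 19 alternative fits, among them the one with the replicate number as a block, which called 0 members.

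Most genes on a list of 29 further neutrophil genes also rose after LL37. Of the 29 genes 26 were tested, and 23 were called higher in LL37 than in control and 0 lower, against 8.73% and 10.8% of all tested genes. Against LL37+RAPA 9 were called higher (4.33% of all tested genes), and 15 without LL37 replicate 3 (5.94% in that fit). Some of the 26 tested genes passed the filter on low counts only through LL37-injected libraries, among them Ltf, Mmp8 and Chil3. For these a difference was built into the selection. Cxcr2, the chemokine receptor of mature neutrophils, had 1.78, 1.33 and 5.53 CPM in control, 204, 210 and 34.2 CPM in LL37 and 8.40, 47.7 and 40.03 CPM in LL37+RAPA. Csf3r, the G-CSF receptor, had 265, 351 and 61.8 CPM in LL37 against 3.64 to 12.3 CPM in control, and 38.0, 146 and 123 CPM in LL37+RAPA. For both genes LL37 replicate 3 lay inside the LL37+RAPA range. S100a8 and S100a9, the subunits of calprotectin, had log2 fold changes of 5.37 (SE 1.13) and 5.80 (SE 1.17) against control, with 469, 686 and 55.4 CPM and 767, 1100 and 91.9 CPM in LL37. Among the others, Fcgr3 and Alox5ap had the smallest p-values, with log2 fold changes of 1.83 (SE 0.21) and 1.78 (SE 0.23). Ly6g, the surface marker of mouse neutrophils, was too low to test and had 1.36, 0.980 and 0.471 CPM in LL37 against 0, 0 and 0.0527 CPM in control, which makes the LL37 mean at least 5.94-fold higher than a floor of 3 counts per library.

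The genes of secondary granules and earlier stages on that list did not move alike. Cebpe, a transcription factor of the stage that makes secondary granules, was at 1.03, 1.59 and 0.942 CPM in LL37 and 1.40, 0.410 and 0.474 CPM in control (0.63, SE 0.66, edgeR adjusted p = 0.472). Camp, the mouse cathelicidin gene of secondary granules, was not called (0.35, SE 1.03, edgeR adjusted p = 0.810). Ltf, the lactoferrin gene, was called (2.62, SE 0.88, edgeR adjusted p = 0.0316) at 0.708, 1.53 and 0.188 CPM in LL37. Ms4a3, a gene of promyelocytes, had 0 counts in all 12 libraries, which allows up to 0.184 CPM in the shallowest library. Other granule genes of the list, named after their values were seen, were called higher. Lcn2, the lipocalin gene of secondary granules, had 16.3, 13.1 and 20.02 CPM in control and 266, 254 and 46.1 CPM in LL37 (3.52, SE 0.64, edgeR adjusted p = 0.00116). It had 24.7, 66.7 and 41.8 CPM in control+RAPA libraries, in which Ly6g had 0 counts. Which cells of the skin held the RNA of Lcn2, S100a8 and S100a9 was not tested. Mmp8, the neutrophil collagenase, had 12.4, 17.9 and 4.90 CPM in LL37 (4.50, SE 0.74, edgeR adjusted p = 0.000610), and Chil3, a chitinase-like gene of myeloid cells, 15.1, 19.98 and 6.88 CPM (3.67, SE 0.63, edgeR adjusted p = 0.000773). The difference between early and late genes was not tested.

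Markers of other cells moved in the same samples. Besides the macrophage genes, 2 of 4 monocyte markers and 0 of 5 erythroid markers were called higher in LL37 than in control. Epx and Prg2, the defining eosinophil granule genes, and Ccr3, the eotaxin receptor, together summed to 0.154 to 0.316 CPM in control, 1.23 to 1.37 CPM in LL37 and 0.427 to 1.06 CPM in LL37+RAPA libraries. Epx and Prg2 were too low to test, and the rise of the sum in LL37 came from Ccr3. Prg2 had 0.216, 0.154 and 0.211 CPM in control and 0, 0.123 and 0.236 CPM in LL37. Epx had 0, 0 and 0.105 CPM in control and 0.163, 0 and 0 CPM in LL37. Ccr3 was called higher in LL37, at 1.20, 1.10 and 1.13 CPM, than in control (5.59, SE 0.92, edgeR adjusted p = 0.000617) and than in LL37+RAPA (2.10, SE 0.59, edgeR adjusted p = 0.0252). It passed the filter on low counts only through LL37-injected libraries, so a difference was built into its selection. Of 10 skeletal muscle genes 9 were tested and all 9 were called lower in LL37. Muscle genes took 2.73% to 4.02% of counts in control, 0.00139% to 0.0603% in LL37 and 0.244% to 0.554% in LL37+RAPA libraries, and their part in the members' values was not tested.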

How the data were processed

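Total RNA was extracted with TRIzol from mouse back skin, and libraries were made with the Illumina TruSeq kit. The unit is the raw count per gene, as the authors deposited it in 1 table of 12 libraries. The study's methods name HTSeq for counting, whereas the submitters' processing notes list HISAT2 2.0.5, StringTie 1.3.3b, featureCounts 1.5.0-p3, DESeq2 1.16.1 and mm10, so the counter is uncertain. Multi-mapped reads and strand settings are not given in the sources used here. Ensembl IDs were matched to GENCODE M21 symbols (52403 of 52636 IDs found).

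Counts were filtered with filterByExpr (0.502 CPM in 3 libraries), TMM-scaled and fitted with edgeR 4.0.16 in R 4.3.3 over all 12 libraries, as quasi-likelihood F-tests of 4 pairwise comparisons and the interaction, with Benjamini-Hochberg adjustment. The standard error is the log2 fold change divided by the square root of F. Depth was 15734559 to 23271784 counts per library, and floors cover counting error only. The test recovered known changes on simulated counts, which were placed only on genes well detected in control libraries. The simulation covered neither members low in control skin nor the spread that LL37 replicate 3 adds. No libraries were duplicates. The members and gene lists were chosen with earlier results of these data known, and p-values measure the spread between these libraries only. All 34 members could be named, and from the other lists the genes fixed by role or marker plus the 3 further neutrophil genes with the smallest p in LL37 against control, of which 1 is not reported here. Alternatives were other size factors, 2 other filters, DESeq2 1.42.0, fits of the compared groups only, a replicate block, no fold limit and leaving out each library. Motif matches are exact letters in RefSeq promoter windows of GRCm38.p6.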

Additional observations from a re-analysis of the deposited data

Results flagged for a closer look

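Hcar2 was the 1 member whose response to rapamycin differed between LL37-injected and control skin by the test of the interaction, and 1 of 31, or 3.23%, is near the 2.38% of all tested genes called. The effect of RAPA was -1.48 (log2, SE 0.33, edgeR adjusted p = 0.0379) in LL37-injected relative to control skin, with Hcar2 at 58.1 to 128 CPM in LL37, 37.8 to 44.9 CPM in LL37+RAPA, 32.0 to 45.9 CPM in control and 45.0 to 55.3 CPM in control+RAPA libraries. The call was lost in 11 of 19 alternative fits, over which the log2 value ran from -1.73 to -1.17 and the adjusted p from 0.000791 to 0.107. Those fits called 0 to 5 members. No cause was tested.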

How the results depend on the processing

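Members called higher in LL37 than in control numbered 27, and 16 when 10 counts were required in every library, a filter that leaves 20 members. Leaving out each library gave 24 to 28 higher and 1 lower. In LL37 against LL37+RAPA the count of 10 fell to 5 with that filter and to 5 with the compared groups only, and ran from 2 to 21 over libraries left out, with 1 to 3 lower. In LL37+RAPA against control it was 16 with the compared groups only and 5 to 18 over libraries left out, with 0 lower. The interaction called 2 members lower with a filter of 1 count in total and 2 with DESeq2, and 0 to 5 over libraries left out. In control+RAPA against control 0 members were called throughout. Apart from the filters, the causes were not tested.

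With the replicate number as a block, the counts were 26 higher in LL37 against control, 5 in LL37 against LL37+RAPA, 8 in LL37+RAPA against control and 0 for the interaction. Same-numbered libraries did not deviate together (correlations from -0.19 to 0.26), so the numbers were not taken as pairs.

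The log2 value of 6 results that were not called changed sign when 1 library was left out. Ifitm6 in LL37 against control ran from -0.063 (without LL37 replicate 2) to 0.52, and Lrg1 in LL37 against LL37+RAPA from -0.95 to 0.056 (without LL37 replicate 3). In LL37+RAPA against control, Ptafr ran from -0.39 to 0.012, positive without control replicate 1 or LL37+RAPA replicate 1. Hcar2 ran from -0.054 to 0.19, negative without control replicate 1 or LL37+RAPA replicate 2, and Cybb from -0.15 to 0.36, negative without control or LL37+RAPA replicate 2. Acod1 ran from -1.50 to 2.22, positive without control replicate 3.

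Of the calls, 22 of 27 higher and Mpo lower in LL37 against control were kept in every alternative, and Hp, Ptafr, Hcar2, Olr1 and Cybb lost theirs in 1 or more. In LL37 against LL37+RAPA, Ptafr, Acod1 and Prtn3 kept theirs. In LL37+RAPA against control 5 of 10 did, and Prtn3, Pglyrp1, Clec4d, Ncf4 and Slfn1 lost theirs in 1 or more. With 3 libraries a group and Elane, Ctsg and Ngp near 3 counts, changes of the primary granule genes below that level could not be seen.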
